A study of Mus musculus with 3 samples.

Results

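Lymphatic endothelial nuclei line the vessels that carry fluid and immune cells away from the heart wall. They were picked out of single-nucleus RNA sequencing of mouse hearts by their own marker transcripts, and 217 of 20733 nuclei met the rule. Nuclei with 300 or more detected genes were kept if mitochondrial transcripts were no more than 10%. Of those, a lymphatic nucleus had under 3% of its transcripts from Ttn, Ryr2, Myh6 and Mhrt, which are abundant in cardiomyocytes, at least 2 transcripts summed over Prox1, Mmrn1, Reln, Flt4 and Ccl21a, none of Slc34a1, Lrp2, Npr3 or Btnl9, and at most 1 over Pdgfra, Dcn, Csf1r and Ptprc. A transcript here is a UMI (unique molecular identifier), 1 captured RNA molecule. The rule reads measured values, so the levels of its genes describe the nuclei and were not tested.

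Lymphatic vessels begin as blind-ended capillaries with loose, flap-like junctions and lead into collecting vessels with valves. The transcription factor PROX1 sets and keeps lymphatic identity, and VEGF-C and VEGF-D drive lymphatic growth through the receptor VEGFR-3, the product of Flt4, with neuropilin-2 as a co-receptor. The chemokine CCL21 draws dendritic cells and T cells into the vessels, and in the heart the lymphatics drain interstitial fluid and clear immune cells after injury.

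The hearts were taken 2 weeks after surgery and gave 3 libraries, 1 for each group. Sham-NS had sham surgery and NS, which the labels do not expand, MI-NS had a myocardial infarction and NS, and MI-DAPA had a myocardial infarction and dapagliflozin, an inhibitor of the renal glucose transporter SGLT2. The labels give no strain, sex, age or number of animals, and no genetic change. With 1 library per group, differences between the groups cannot be told apart from differences between hearts or preparations, so they are given as values with intervals that cover counting error only and with no test.

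The quality limits left 8296 sham nuclei, 7065 in the MI-NS library and 5372 with dapagliflozin. The lymphatic nuclei numbered 70, 84 and 63 in that order, with 71146, 100027 and 60245 UMIs in all and medians of 789, 973.5 and 880 UMIs each. Their median mitochondrial share was 4.17%, 1.42% and 3.40%, and that of the capillary endothelial nuclei used for comparison was 4.09%, 1.82% and 3.30%, so the MI-NS library stood lowest in both kinds. Pairs of libraries shared 52 cell barcodes in all, none of them on a lymphatic nucleus.

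The genes of the rule. Levels are CPM, the UMIs of a gene per 1000000 UMIs of a library's lymphatic nuclei, and values by library are given with the sham heart first, then MI-NS, then MI-DAPA. Prox1 stood at 801, 580 and 1145 CPM, against 51.8, 43.2 and 85.5 CPM in all other nuclei. Flt4 was the steadiest of the 5, at 1237, 1220 and 1295 CPM, against 18.1, 30.9 and 16.5 CPM elsewhere. Mmrn1, which encodes the secreted glycoprotein multimerin-1, stood at 1448, 830 and 813 CPM and was highest in Sham-NS. Reln encodes reelin, a large secreted glycoprotein that lymphatic endothelium makes. It stood at 675 CPM in Sham-NS (95% Poisson interval 497 to 895), 150 CPM in MI-NS (83.9 to 247) and 564 CPM in MI-DAPA (391 to 789), lowest in MI-NS. Ccl21a was lowest in the sham heart, at 562 CPM (402 to 766) against 1200 CPM in MI-NS (995 to 1435) and 1062 CPM in MI-DAPA (818 to 1357). Ccl21a has near-identical copies: the transcript of Ccl21b matches it in 400 of 402 bases, and the copies together held 2 lymphatic UMIs, so how reads were split among them is uncertain.

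**Figure D1:**
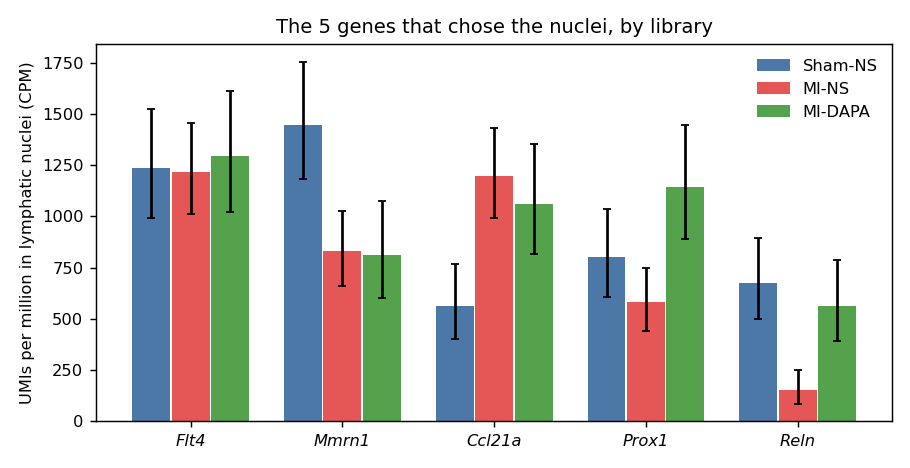
Level of the 5 genes of the rule in lymphatic nuclei, as bars of CPM for each library (Sham-NS, MI-NS, MI-DAPA), with 95% Poisson intervals as error bars that cover counting error only. Reln is lowest in MI-NS at 150 CPM and Ccl21a is lowest in Sham-NS at 562 CPM, while Flt4 lies between 1220 and 1295 CPM.

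The nuclei differed in how firmly the rule held them. The median marker sum was 4 UMIs in each library, and the highest sums were 13, 16 and 15. UMIs of all 5 markers were seen together in 3, 2 and 2 nuclei, and 20, 25 and 18 nuclei passed on a single marker, which was Flt4 in 12, 16 and 9 of them. Genes outside the rule were compared just outside the threshold, with exactly 1 marker UMI, just inside with exactly 2, and with 3 or more. Maf stood in that order at 228, 389 and 316 CPM in Sham-NS, 95.7, 440 and 605 CPM in MI-NS and 161, 229 and 444 CPM in MI-DAPA. Nrp2 stood at 185, 389 and 356 CPM, 392, 660 and 1251 CPM, and 518, 802 and 982 CPM in the same libraries. Lyve1 stood at 21.7, 0 and 158 CPM, 0, 36.6 and 220 CPM, and 35.7, 172 and 117 CPM. All of these were higher with 3 or more marker UMIs than with 1, but the middle value lay outside the other values for Maf and Nrp2 in Sham-NS and for Lyve1 in Sham-NS and MI-DAPA. Flt1, the VEGF receptor of blood endothelium, was lower with more marker UMIs, at 989, 729 and 237 CPM in Sham-NS, 258, 256 and 124 CPM in MI-NS and 447, 115 and 23.4 CPM in MI-DAPA.

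Transcripts of other cells were present. The kidney genes and the endocardial gene Npr3 were at 0 by the rule. Among nuclei that failed the cardiomyocyte limit, 3.80%, 4.89% and 7.80% also had at least 2 marker UMIs (78, 59 and 134 nuclei). Prox1 is also transcribed in cardiomyocytes. Of 14 cardiomyocyte markers, the 4 that the rule limits were left out of the sum. The others, of which 2, 0 and 0 were at 0, summed to 2572, 2109 and 2540 CPM in lymphatic nuclei. Ttn and Myh6, both left out, had 267 UMIs each over the 3 libraries. Of 13 leukocyte markers, Csf1r and Ptprc are limited by the rule and were left out. The others, of which 6, 5 and 7 were at 0, summed to 281, 200 and 99.6 CPM. These sums hold no gene that the rule limits, but the rule also drops nuclei rich in such RNA. The part this RNA plays in the values below was not tested.

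Lymphatic nuclei made up 0.844% of nuclei kept in Sham-NS (95% exact binomial interval 0.658 to 1.06), 1.19% in MI-NS (0.949 to 1.47) and 1.17% in MI-DAPA (0.902 to 1.5). The MI-NS share was higher than the Sham-NS share by 0.49 on the log2 scale (counting interval 0.02 to 0.97), and the MI-DAPA share differed from MI-NS by -0.02 (-0.51 to 0.47). Depth moved with the first difference. With each nucleus thinned to 500 UMIs, which every nucleus kept had reached, the shares were 0.784%, 0.849% and 0.875%. The log2 ratio of MI-NS to Sham-NS was then 0.12 (-0.41 to 0.65). Among lymphatic, capillary and endocardial nuclei together, lymphatic nuclei were 5.33% (4.18 to 6.69), 14.3% (11.5 to 17.3) and 11.1% (8.66 to 14.0), a log2 ratio of 1.42 (0.94 to 1.90) for MI-NS over Sham-NS. Nuclei that passed the capillary rule numbered 1193, 492 and 496 in the same libraries, so this ratio also carries that lower number in MI-NS. The capillary rule reads Flt1, Btnl9, Car4, Rgcc and Emcn, so the number depends on the levels of these genes too. The part of those levels in the ratio was not tested. Of nuclei past the cardiomyocyte limit, lymphatic nuclei were 1.12%, 1.43% and 1.72%, and the log2 ratio of MI-NS to Sham-NS was 0.36 (-0.12 to 0.83). Nuclei are a share of what was captured, and a higher share is not a count of cells per heart.

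**Figure D2:**
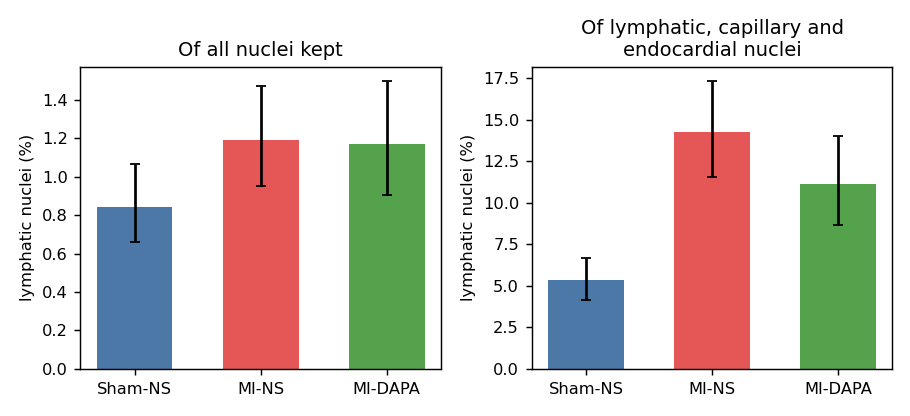
Lymphatic nuclei as a percentage of all nuclei kept (left) and of lymphatic, capillary and endocardial nuclei together (right) in each library, with error bars for 95% exact binomial intervals that cover counting error only. On the left the libraries read 0.844%, 1.19% and 1.17% with overlapping intervals, and on the right 5.33%, 14.3% and 11.1% with the Sham-NS interval below both others.

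Lymphatic against capillary endothelium. The blood capillary nuclei of the same libraries were chosen by Flt1, Btnl9, Car4, Rgcc and Emcn with none of the lymphatic markers, and UMIs were summed per library and kind, which gave 3 pairs. Of 5087 genes tested with the genes of both rules left out, 196 (3.85%) were higher and 275 (5.41%) lower in lymphatic nuclei, by edgeR's quasi-likelihood test with the library as a block and a Benjamini-Hochberg adjusted p under 0.05. Leaving out 1 library gave 138 higher genes without Sham-NS, 138 without MI-NS and 101 without MI-DAPA, and 178, 108 and 118 lower genes, while DESeq2 called 93 higher and 70 lower and edgeR without the library block 106 and 113. The 3 pairs are not known to be separate animals beyond the 3 libraries. With the library as a block, the p-values set the difference between kinds of nuclei against a variation that edgeR estimates partly from all genes together. They are therefore not a measure of a single gene's spread over these 3 libraries alone. The libraries also differ in group.

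The highest gene was Tbx1, a T-box transcription factor required for lymphatic development. It had 28, 68 and 43 lymphatic UMIs, or 394, 680 and 714 CPM, against 0, 1 and 1 UMIs in the far more numerous capillary nuclei. Its log2 fold change was 8.56 with a standard error of 0.44 (adjusted p = 5.9e-35), and no library overlapped. Susd4, which encodes a complement regulator, had 9, 8 and 13 lymphatic against 0, 1 and 0 capillary UMIs (7.17, standard error 0.74, adjusted p = 2.7e-14). Apba2, which encodes an adaptor protein of membrane traffic, had 7, 5 and 12 against 2, 0 and 0 (6.28, standard error 0.73, adjusted p = 7.3e-12).

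The promoters of these genes are printed because the genes stood highest among those tested. Each is 250 bases before to 50 bases after a transcription start listed by RefSeq on GRCm38.p6, read 5′ to 3′ on the gene's strand, the first of 2 promoters listed for each gene. They lie at chr16:18588850-18589149 on the minus strand (Tbx1), chr1:182763966-182764265 on the plus strand (Susd4) and chr7:64501456-64501755 on the plus strand (Apba2). Capitals mark GGAAG, the short core that ETS factors read, or its reverse complement CTTCC.
Tbx1: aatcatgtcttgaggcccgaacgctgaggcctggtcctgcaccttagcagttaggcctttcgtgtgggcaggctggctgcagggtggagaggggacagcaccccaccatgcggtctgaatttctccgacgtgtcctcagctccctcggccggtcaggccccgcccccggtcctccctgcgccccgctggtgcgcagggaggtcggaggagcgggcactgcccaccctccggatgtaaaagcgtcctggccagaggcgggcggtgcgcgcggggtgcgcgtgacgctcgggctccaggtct
Susd4: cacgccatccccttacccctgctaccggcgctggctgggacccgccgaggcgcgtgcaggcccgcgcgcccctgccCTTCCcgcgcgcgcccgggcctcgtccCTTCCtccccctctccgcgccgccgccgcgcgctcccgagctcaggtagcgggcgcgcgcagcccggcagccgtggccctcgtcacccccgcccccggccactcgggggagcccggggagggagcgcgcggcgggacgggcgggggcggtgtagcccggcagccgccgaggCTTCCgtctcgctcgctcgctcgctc
Apba2: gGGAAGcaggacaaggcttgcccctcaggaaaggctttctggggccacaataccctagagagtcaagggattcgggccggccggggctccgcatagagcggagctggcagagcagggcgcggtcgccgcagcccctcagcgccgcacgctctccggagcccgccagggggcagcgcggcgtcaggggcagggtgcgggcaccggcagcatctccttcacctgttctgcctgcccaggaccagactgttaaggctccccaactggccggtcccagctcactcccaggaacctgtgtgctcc
The Susd4 window holds 3 matches, the Apba2 window 1 and the Tbx1 window none. Over the 145 of 196 higher genes with a listed promoter, GGAAG on either strand was in 75.9%, against 79.2% of 202 lower genes, 79.8% of 4057 tested genes and 73.9% of all 27025 genes with a promoter. The MAF half-site TGCTGA was in 24.8% of higher, 21.3% of lower, 17.5% of tested and 21.7% of all genes. The longer ETS core CCGGAA, which contains no GGAAG but can overlap it by GGAA, was in 15.9%, 17.3%, 31.4% and 16.7%. The SOX motif ACAAAG stood at 17.2%, 21.3%, 16.0% and 21.0%, the FOX motif TGTTTAC at 4.14%, 4.95%, 3.28% and 4.05%, and the TATA box TATAAA at 13.1%, 15.3%, 9.0% and 15.7%, each on both strands. Higher and lower genes lay within a few percentage points of each other for each of these 6 motifs, which were chosen after promoter sequences had been looked at.

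Genes named for lymphatic identity stood higher as a group. Of a list of 34 such genes outside the rule, 21 passed the filter on low counts, 13 were higher and none lower, with a median log2 fold change of 1.69 against -0.02 over all genes tested. Of all genes tested 3.85% were higher and 5.41% lower. Maf, a transcription factor of lymphatic endothelium, had 337, 560 and 382 CPM against 47.8, 46.4 and 31.0 CPM (3.29, standard error 0.29, adjusted p = 3.5e-18). Stab1, which encodes the scavenger receptor stabilin-1 of sinusoidal and lymphatic endothelium, had 1167, 1670 and 2390 CPM against 401, 525 and 455 CPM (1.85, standard error 0.15, adjusted p = 5.3e-20). Nr2f2, which encodes COUP-TFII, the partner of PROX1 in venous and lymphatic cells, had 436, 460 and 332 CPM against 147, 124 and 106 CPM (1.69, standard error 0.23, adjusted p = 6.1e-09). Lyve1, which encodes the hyaluronan receptor of lymphatic capillaries, was scarce, with 8, 17 and 8 UMIs, yet higher than in capillary nuclei (4.07, standard error 0.52, adjusted p = 3.9e-10). The other higher members were Tbx1, Cp, Itga9, Klhl4, Mrc1, Pard6g, Pkhd1l1, Sema3a and Thy1. Pdpn, which encodes podoplanin, was too low to test at 6, 6 and 2 UMIs.

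Other high genes were not on that list. Sned1, which encodes a secreted matrix protein, was at 2853, 1150 and 2141 CPM against 150, 72.4 and 87.9 CPM in capillary nuclei (4.26, standard error 0.17, adjusted p = 2.8e-45). Clca3a1, a lymphatic marker related to chloride channel regulators, had 562, 330 and 1029 CPM against 16.6, 16.7 and 10.3 CPM (log2 fold change 5.22). Scn3a, which encodes a voltage-gated sodium channel subunit, had 506, 840 and 465 CPM against 31.2, 18.6 and 18.1 CPM (4.63). In each of these the lowest lymphatic library lay far above the highest capillary library. Tc2n (5.33), Sgsm1 (5.24), Slc45a3 (5.17) and Dusp2 (4.84) completed the 12 highest together with Tbx1, Susd4, Apba2, Clca3a1, Scn3a, Ackr2, Sema3a and Pard6g.

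**Figure D3:**
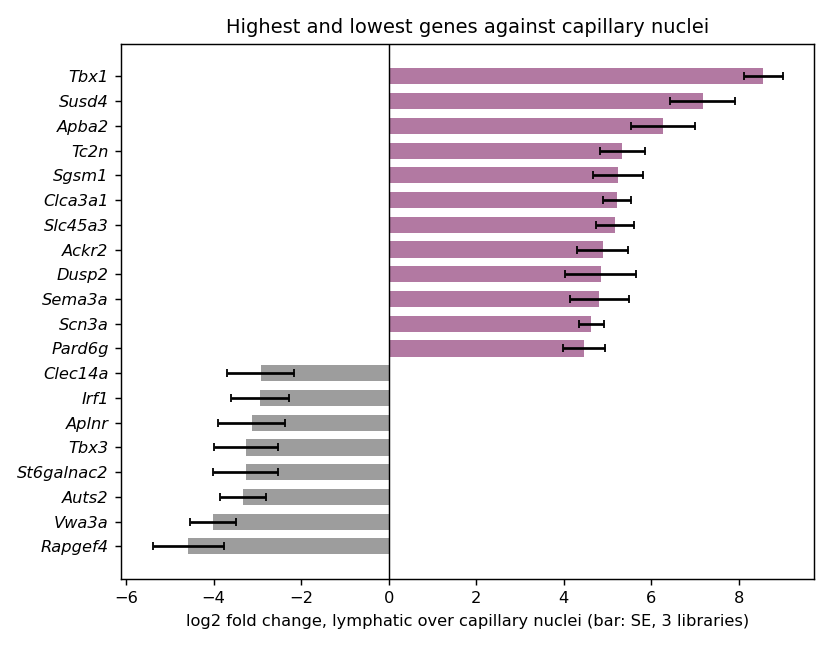
Log2 fold changes (lymphatic over capillary nuclei, bars with standard errors, 3 libraries) for the 12 highest and 8 lowest genes past the test. Tbx1 (8.56) leads the higher genes and Rapgef4 (-4.58) is the lowest.

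Receptors and ligands of lymphatic growth were mixed. Of 16 genes of VEGF-C and VEGF-D signalling, 9 were tested, Itga9 was higher, and Kdr, Nrp1 and Ptprb were lower. Over all genes tested against capillary nuclei, 3.85% were higher and 5.41% lower. Kdr, which encodes VEGFR-2, had 436, 540 and 548 CPM (-0.62, standard error 0.17, adjusted p = 0.0088). Nrp1, the co-receptor of blood vessels, was lower by more (-1.84, standard error 0.22, adjusted p = 3e-11). Nrp2, the co-receptor for VEGF-C, had 365, 1090 and 930 CPM, with a log2 fold change of 0.45 that did not pass (adjusted p = 0.078). The ligands were barely seen in the lymphatic nuclei, with 1, 2 and 1 UMIs of Vegfc, 0, 2 and 0 of Vegfd, and 1, 2 and 0 of Ccbe1, which is needed to process VEGF-C. In the adrenomedullin pathway, which limits lymphatic leak, Calcrl had 9, 13 and 4 UMIs, its partner Ramp2 7, 8 and 2 and the ligand Adm 3, 4 and 2, and of the 4 genes of that list tested none was higher and 1 was lower.

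Valve, junction and Tie genes came next. Adgrg3, an adhesion G protein-coupled receptor, had 520, 400 and 614 CPM against 29.1, 27.8 and 23.3 CPM (4.18, standard error 0.30, adjusted p = 2.2e-24). Piezo2, which encodes a mechanosensitive ion channel, had 169, 470 and 332 CPM (2.06, standard error 0.30, adjusted p = 2.4e-08). Those 2, with Itga9 and Sema3a, were the 4 higher of 15 valve and collecting-vessel genes tested, and Fat4 and Klf4 were lower. The shares over all genes tested were 3.85% higher and 5.41% lower. Piezo1 was at 295, 430 and 315 CPM. Foxc2, a valve transcription factor, had 0, 1 and 0 UMIs. Of 14 junction genes tested 1 was higher, Cldn5, which encodes claudin-5 (1.33, standard error 0.39, adjusted p = 0.012), and 6 were lower, among them Cdh5, which encodes VE-cadherin, at 169, 190 and 199 CPM against 321, 380 and 416 CPM (-1.01, standard error 0.24, adjusted p = 0.0013). Of the 5 genes tested around the angiopoietin receptors 3 were lower: Tie1 (-0.86), Tek (-1.13) and the phosphatase gene Ptprb (-1.12).

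Among genes of leukocyte traffic, 13 were tested and 3 were higher, where 3.85% of all genes tested were higher and 5.41% lower. Ackr2 encodes a chemokine-scavenging receptor of lymphatic endothelium and had 84.3, 150 and 183 CPM against 1.04, 9.28 and 2.58 CPM (4.89, standard error 0.58, adjusted p = 1.5e-11). Stab1 and Mrc1, which encodes the mannose receptor, were the others, and Cxcl12 and Cd200 were lower. In the guidance list of 14 tested genes 2 were higher and 2 lower. Sema3f, a repellent ligand of neuropilin-2, was higher (0.93, standard error 0.24, adjusted p = 0.0035), and Plxnd1, a semaphorin receptor, was lower (-1.05, standard error 0.17, adjusted p = 8.7e-07).

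Blood endothelial genes stood lower in lymphatic nuclei. Of 12 blood capillary genes tested, 11 were lower and none higher, with a median of -1.53. For this and the lists below, 5.41% of all genes tested were lower and 3.85% higher, with a median of -0.02. Of 17 pan-endothelial genes 9 were lower, with a median of -0.63. Rapgef4, which encodes a cAMP-responsive exchange factor, had 0, 1 and 0 lymphatic UMIs against 67, 68 and 51 (-4.58, standard error 0.81, adjusted p = 5.8e-06). Tbx3, a T-box factor, had 1, 1 and 0 against 124, 31 and 30 (-3.25, standard error 0.73, adjusted p = 0.00054). Aplnr, which encodes the apelin receptor, had 0, 1 and 1 against 48, 47 and 37 (log2 fold change -3.13, adjusted p = 0.0016). Cd36, which encodes a fatty acid transporter, had 10, 11 and 8 UMIs (-1.46, standard error 0.27, adjusted p = 1.3e-05), and together with Fabp4 and Lpl it made 3 lower genes among 10 tested of lipid and energy metabolism, against 1 higher, the cholesterol exporter gene Abca1 (1.31). Of 19 interferon and class I genes 7 were lower and none higher (median -0.64).

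Against endocardial nuclei, chosen by Npr3 and Cytl1 and only 50, 13 and 7 in number, 1155 genes could be tested. Of these 32 (2.77%) were higher and 36 (3.12%) lower in lymphatic nuclei, and leaving out 1 library gave 8 to 21 higher and 16 to 35 lower genes, the fewest without MI-NS on both sides. Adgrg3 (5.27), Scn3a (4.58), Piezo2 (4.22), Clca3a1 (3.33), Sned1 (3.01) and Maf (2.59) were higher here as well. Vwf, which encodes von Willebrand factor (-4.36), and Vcam1, which encodes a leukocyte adhesion molecule (-3.88), were lower. These numbers rest on few endocardial nuclei.

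MI-NS against Sham-NS. Genes with 20 or more UMIs in the lymphatic nuclei of the 2 libraries together were measurable, and a gene was counted as different when its CPM differed by at least 2-fold. Of 1803 measurable genes 185 (10.3%) were higher and 150 (8.32%) lower in MI-NS, around a median log2 ratio of 0.00. Ratios carry 0.5 UMI added on each side and 95% exact conditional binomial intervals.

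Several receptors for guidance cues stood higher in MI-NS, and 1 measurable receptor of the guidance list, the semaphorin receptor gene Plxna2, read lower with an interval that included 0 (-0.56, -1.55 to 0.42). Nrp2 had 26, 109 and 56 UMIs, or 365, 1090 and 930 CPM, a log2 ratio of 1.56 (0.95 to 2.25) for MI-NS over Sham-NS beside 0.98 in capillary nuclei. Plxnd1 had 267, 990 and 581 CPM, a ratio of 1.86 (1.17 to 2.68) beside 0.91 in capillary nuclei. Unc5b, which encodes a netrin receptor, had 2, 23 and 6 UMIs and a ratio of 2.74 (1.02 to 6.16). It read 1.76 in capillary and 2.54 in all other nuclei. Sema4c, which encodes a membrane semaphorin ligand and was not on the list, had 4, 36 and 9 UMIs and a ratio of 2.53 (1.20 to 4.63). Its ratio was 1.04 in capillary and 1.07 in all other nuclei. Robo4, which encodes a Roundabout-family receptor of endothelium, had 0.52 with an interval that included 0 (-0.21 to 1.33), and Sema3f 0.08. Of 9 measurable guidance genes 7 were higher by any amount, 4 of them (Unc5b, Plxnd1, Nrp2 and Sema3a) at least 2-fold, and 2 were lower by less than 2-fold. Their median was 0.52, against 0.00 over all measurable genes, of which 10.3% were at least 2-fold higher. Nrp2, Plxnd1 and Unc5b were higher in capillary nuclei as well, and no difference between the 2 kinds of nuclei was tested.

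Identity genes outside the rule split, 8 higher and 7 lower of 15 measurable, with a median of 0.07. Tbx1 (0.77, 0.13 to 1.48), Maf (0.71, 0.02 to 1.49) and Stab1 (0.51, 0.13 to 0.91) lay higher. Cp, which encodes the copper-carrying ferroxidase ceruloplasmin, lay lower at 942, 380 and 647 CPM (-1.30, -1.92 to -0.71), and so did Pkhd1l1, which encodes a large receptor-like protein, at 534, 270 and 714 CPM (-0.98, -1.75 to -0.23). In capillary nuclei Cp was at 0.15 and Pkhd1l1 at 0.77 in the same comparison. Sned1 was lower in both kinds, at -1.31 (-1.65 to -0.97) in lymphatic and -1.03 in capillary nuclei. Nr2f2 (0.07, -0.61 to 0.78), Lyve1 (0.55, -0.69 to 2.02) and Kdr (0.30, -0.35 to 1.00) had intervals that included 0.

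Among junction genes 10 of 11 measurable were higher by any amount, 3 of them 2-fold or more (median 0.61), but the intervals were wide. Over all measurable genes the median was 0.00 and 10.3% were at least 2-fold higher. Pecam1 read 0.61 (-0.23 to 1.55), Cldn5 1.02 (-0.30 to 2.72) and Esam 0.94 (-0.40 to 2.64), all including 0. Egfl7, an endothelial secreted factor gene that hosts a microRNA, was better counted, with 86, 261 and 144 UMIs and a ratio of 1.10 (0.75 to 1.48) beside 0.35 in capillary nuclei. Eng, which encodes the TGF-beta co-receptor endoglin, lay lower at 576, 240 and 232 CPM (-1.25, -2.06 to -0.50). Piezo2 was higher at 1.43 (0.54 to 2.53), beside 3.24 in capillary nuclei.

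Of 11 measurable matrix genes 5 were at least 2-fold higher and none at least 2-fold lower, with a median of 0.13. Over all measurable genes the median was 0.00, with 10.3% at least 2-fold higher and 8.32% at least 2-fold lower. Fibroblast transcripts were high in MI-NS as well. Fn1, which encodes fibronectin and whose splice form with the EIIIA domain acts in lymphatic valves, had 9, 82 and 18 UMIs and a ratio of 2.63 (1.70 to 3.88) beside 2.78 in capillary nuclei. Col4a1 (1.36, 0.42 to 2.52) and Col4a2 (1.41, 0.38 to 2.71), the chains of basement membrane collagen, lay higher, beside 1.82 and 1.77 in capillary nuclei, while Lama4, a laminin chain gene, read -0.24 (-0.77 to 0.30). Col1a2, the fibrillar collagen gene of fibroblasts, had 4, 110 and 18 UMIs (4.13, 2.89 to 6.19), and Col3a1 had 7, 103 and 20 (3.30, 2.29 to 4.74). Of 11 fibroblast markers, the 2 that the rule limits were left out of the sum. The others, of which 1, 0 and 2 were at 0 in lymphatic nuclei, summed to 1012, 3929 and 2042 CPM there. The sums were 985, 3804 and 1427 CPM in capillary nuclei and 1013, 5034 and 1956 CPM in all other nuclei. The rule also drops nuclei rich in fibroblast RNA, and the part of that RNA in the matrix values was not tested. The 9 pericyte and smooth muscle markers, of which 0, 0 and 4 were at 0, summed to 492, 1090 and 99.6 CPM, beside 607, 778 and 509 CPM in capillary and 690, 683 and 597 CPM in all other nuclei, and the rule limits none of them. Of 6 mesothelial markers 6, 3 and 5 were at 0, and their sums were 0, 170 and 49.8 CPM.

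Clock genes lay lower in MI-NS. Dbp, a transcription factor gene with a strong daily rhythm, had 25, 1 and 4 UMIs (-4.58, -10.49 to -2.52). Tef, its relative, had 661, 110 and 249 CPM (-2.54, -3.68 to -1.62), Per3 had 253, 60.0 and 83.0 CPM (-2.0, -3.70 to -0.68), and Nr1d2 had 408, 180 and 282 CPM (-1.16, -2.11 to -0.28). All 5 measurable clock genes were at least 2-fold lower, with a median of -2.54. Over all measurable genes the median was 0.00 and 8.32% were at least 2-fold lower. In capillary nuclei Tef, Per3 and Nr1d2 read -2.27, -2.93 and -1.68. The hour at which each heart was taken is not given in the labels, so time of day and surgery cannot be told apart for these genes.

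Of the remaining genes with the highest ratios, Mtch1, a mitochondrial outer membrane protein gene, had 0 UMIs in Sham-NS and 22 in MI-NS, which is at least 5.22-fold higher against a floor of 3 UMIs in the Sham-NS library. Tmem132a (3.48, 1.41 to 9.40), the matrix protease gene Adamts1 (2.47, 0.71 to 5.90) and the zinc transporter gene Slc39a13 (2.47, 0.71 to 5.90) had 1 or 2 UMIs in Sham-NS. On the lower side were Abcg2, an efflux transporter gene (-3.18, -5.75 to -1.63), Hmcn2, a hemicentin gene (-2.62, -4.28 to -1.41), Cyp4b1, a fatty acid hydroxylase gene (-2.53, -4.68 to -1.06), and Thsd7a (-1.84, -3.55 to -0.48). These lower genes read -1.63, -1.27, -1.58 and 0.02 in capillary nuclei, in that order. In all other nuclei they read -0.98, -0.76, -1.56 and -0.51. Mitochondrially encoded genes were lower in 11 of 11, with summed levels of 42167, 16056 and 37530 CPM, and those of capillary nuclei were lowest in MI-NS too (40972, 22225 and 35767 CPM).

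**Figure D4:**
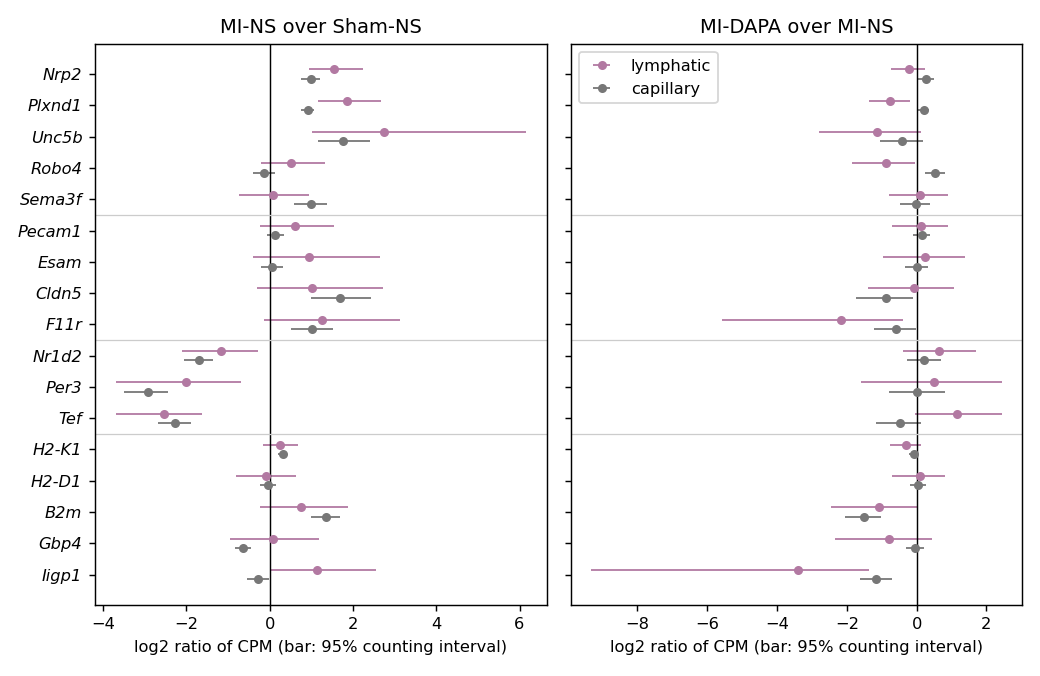
Log2 ratios of CPM for MI-NS over Sham-NS (left) and MI-DAPA over MI-NS (right) in lymphatic and capillary nuclei, with 95% counting intervals as bars and grey lines between guidance, junction, clock and interferon genes; the panels have different ranges. Nrp2, Plxnd1 and Unc5b lie above 0 on the left, at 1.56, 1.86 and 2.74, and the 3 clock genes lie below 0 in both kinds of nuclei.

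MI-DAPA against MI-NS. This comparison uses the same MI-NS library as the one above, so a gene with a high count there tends to read low here. Of 1703 measurable genes 118 (6.93%) were higher and 118 (6.93%) lower, around a median of 0.08, and with TMM scaling factors in place of UMI totals the split was 87 higher and 142 lower.

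Stab1 stood higher at each step with intervals clear of 0, at 1167, 1670 and 2390 CPM, with a ratio of 0.52 (0.19 to 0.85) here beside -0.21 in capillary nuclei. Pkhd1l1 (1.39, 0.68 to 2.15), Cp (0.77, 0.09 to 1.45), Sned1 (0.90, 0.52 to 1.27), Clca3a1 (1.63, 1.01 to 2.30) and Efcc1 (1.51, 0.73 to 2.35), an EF-hand and coiled-coil gene, were higher in MI-DAPA. Tbx1 (0.08, -0.52 to 0.64) and Maf (-0.53, -1.32 to 0.17) had intervals that included 0, and Scn3a was lower (-0.84, -1.53 to -0.22). Over 15 measurable identity genes 9 were higher and 6 lower, with a median of 0.12.

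Measurable guidance genes were split, 6 lower and 3 higher by any amount. Ephb4, which encodes an ephrin receptor of veins and lymphatic valves, read higher with an interval that included 0 (0.96, -0.30 to 2.27). Nrp2 read -0.22 (-0.72 to 0.25), Plxnd1 -0.76 (-1.37 to -0.20), Robo4 -0.88 (-1.86 to -0.05) and Unc5b -1.12 (-2.79 to 0.13), and in capillary nuclei 0.28, 0.20, 0.52 and -0.41. The 3 higher of the 9 were Ephb4, Sema6a and Sema3f, and of the 6 lower only Unc5b was at least 2-fold lower. The median was -0.17, against 0.08 over all measurable genes, of which 6.93% were at least 2-fold lower. F11r, which encodes the junction protein JAM-A, had 5, 18 and 2 UMIs (-2.16, -5.59 to -0.38), beside -0.59 in capillary and -1.35 in all other nuclei. The junction list as a whole split 6 higher to 5 lower.

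Interferon-response genes lay mostly lower, 8 of 10 measurable by any amount and 3 of them 2-fold or more (median -0.72). Over all measurable genes the median was 0.08 and 6.93% were at least 2-fold lower. The interferon list summed to 4309 CPM in MI-NS and 3154 CPM in MI-DAPA in lymphatic nuclei. It summed to 6310 and 5613 CPM in capillary nuclei and 3285 and 1598 CPM in all other nuclei. Iigp1, which encodes an interferon-inducible GTPase, had 8, 26 and 1 UMIs (-3.41, -9.33 to -1.36), beside -1.15 in capillary and -1.39 in all other nuclei. Ifi27 had 11, 29 and 4 UMIs (-1.98, -4.10 to -0.62), beside -0.66 in capillary and -1.15 in all other nuclei. B2m, the class I light chain gene, read -1.06 (-2.47 to 0.04), and the class I genes H2-K1 (-0.30, -0.76 to 0.14) and H2-D1 (0.08, -0.69 to 0.82) had intervals that included 0.

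Fn1 was lower in MI-DAPA (-1.43, -2.28 to -0.71), as in capillary nuclei (-2.23), and Timp3, a metalloproteinase inhibitor gene, read -1.59 (-3.44 to -0.30). Lama4 was higher (0.71, 0.20 to 1.22). Adamts1 (-2.23), Hivep3 (-2.23), the integrin gene Itga7 (-2.37) and the complement gene C1s1 (-2.16) had 2 UMIs each in MI-DAPA. In all other nuclei they read -0.70, -0.86, 0.21 and -1.15 in that order. Pdgfrb, the pericyte receptor gene, had 12, 32 and 0 UMIs, at least 6.42-fold lower than MI-NS against a floor of 3 UMIs in the MI-DAPA library, and pericyte markers were low there as a list. Highest in MI-DAPA were Sgsm1, a small GTPase regulator gene, with 13, 5 and 18 UMIs (2.48, 1.10 to 4.36), Pogz (2.32), Krcc1 (2.18) and Hmcn2 (2.16).

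Slc5a2, which encodes SGLT2, the target of dapagliflozin, had 0 UMIs in the lymphatic nuclei of each library. A count of 0 allows up to 4.29%, 3.57% and 4.76% of nuclei with a UMI and up to 42.2, 30.0 and 49.8 CPM, so its absence is not shown at this depth. The insulin receptor gene Insr had 9, 10 and 14 UMIs.

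**Figure D5:**
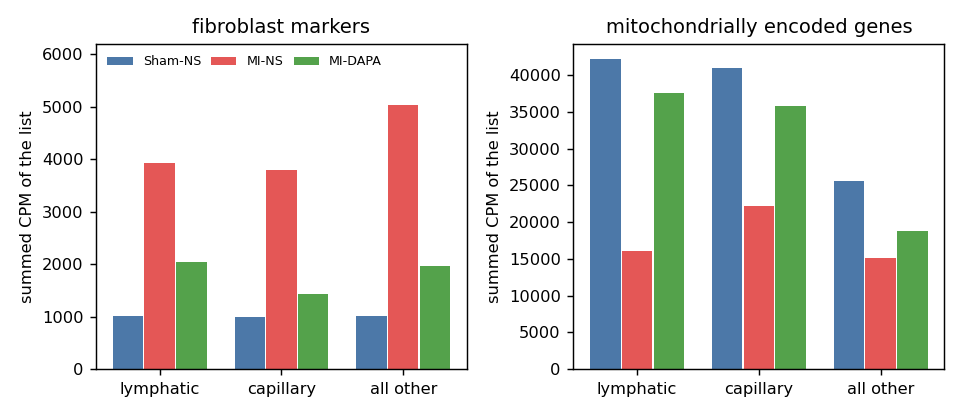
Summed CPM of fibroblast markers (left) and mitochondrially encoded genes (right) in lymphatic, capillary and all other nuclei, with a bar for each library. The 2 fibroblast markers that the rule limits are left out. Fibroblast transcripts are highest in MI-NS in each kind of nucleus (3929, 3804 and 5034 CPM), and mitochondrial transcripts are lowest there.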

How the data were processed

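Nuclei of mouse hearts were sequenced in 3 libraries, 1 for each group, and the authors deposited UMI counts for each barcode and gene, made with Cell Ranger 6.0.1 per the file headers. Per the submitters' processing notes the build was mm10 and Seurat was used, and whether intronic reads were counted is not given in the sources used here. Barcodes numbered 9744, 7725 and 6354 (Sham-NS, MI-NS, MI-DAPA), with 13873275, 10113430 and 8871086 UMIs. No doublet caller was run and doublets were not measured. The rule bars or limits kidney, endocardial, capillary, fibroblast, leukocyte and cardiomyocyte genes, and no pericyte, smooth muscle or mesothelial gene.

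UMIs were summed per library and kind of nucleus. Lymphatic nuclei were compared with capillary and endocardial nuclei by edgeR 4.0.16 (R 4.3.3), with TMM factors, filterByExpr and the library as a block, since both kinds of nuclei came from the same library. DESeq2 1.42.0 was an alternative, and the edgeR steps were tested on simulated data. Libraries were compared by CPM ratios with 0.5 UMI added, exact conditional binomial intervals and no test. Intervals use 95% confidence, and the level allowed by a count of 0 is 3 UMIs. Python 3.11.15 with numpy 2.4.6, scipy 1.17.1, pandas 2.3.3, matplotlib 3.10.9 and Biopython 1.88 did the rest.

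Named genes were the genes of the rule, up to 6 members of each of 32 lists by summed UMIs, the 12 highest and 8 lowest fold changes past an adjusted p of 0.05 with the same direction in 3 of 3 libraries, the 8 highest and 8 lowest ratios between libraries among measurable genes with UMIs in at least 8 nuclei of the higher library and a CPM there no lower than in other nuclei, and 20 genes named whatever their level. A member of a list called against another kind of nucleus is named beside its list's count. The members and lists were chosen with earlier results of these data known. Alternatives changed the rule, the filters, the scaling, the minimum UMIs and the libraries used.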

Additional observations from a re-analysis of the deposited data

Results flagged for a closer look

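The genes below lay on opposite sides of 0 in lymphatic and capillary nuclei in the same comparison, with each counting interval clear of 0, among genes at least 2-fold different in lymphatic nuclei that met the minimums of the naming rule. Each kind of nucleus had 1 library per group, and the difference between kinds was not tested. The intervals were not adjusted for the number of genes looked at, and some ended close to 0. Iigp1 had 0.02 to 2.56 in lymphatic and -0.55 to -0.01 in capillary nuclei, and Adcy4 had -0.50 to -0.01 in capillary nuclei. For MI-NS over Sham-NS these were, as log2 ratios in lymphatic and then capillary nuclei, the RNA sensor gene Ddx58 (1.91 and -0.47), the intermediate filament gene Nes (1.83 and -0.44), Rsbn1l (1.62 and -0.71), the adenylate cyclase gene Adcy4 (1.19 and -0.25), Iigp1 (1.15 and -0.27) and the matrix gene Abi3bp (-1.11 and 1.15).

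For MI-DAPA over MI-NS they were the RNA-binding protein genes Celf1 (1.60 and -0.59) and Pum2 (1.06 and -0.54), the ATP synthase gene Atp5b (1.38 and -0.49), the fibulin gene Fbln2 (1.01 and -0.78), the mannosidase gene Man2c1 (-1.82 and 0.75) and the cofilin phosphatase gene Ssh2 (-1.95 and 0.42). Ddx58 rested on 18 against 3 lymphatic UMIs, and Man2c1 and Ssh2 on 3 UMIs each in MI-DAPA. Close to 0 were also the lymphatic interval of Pum2 (0.02 to 2.15) and the capillary interval of Atp5b (-0.98 to -0.02).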

How the results depend on the processing

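The log2 ratio of the lymphatic share, MI-NS over Sham-NS, was 0.49 over all nuclei and 1.42 over endothelial nuclei. It was 0.97 with the stricter nucleus filter and 0.12 with nuclei thinned to 500 UMIs. Counts of genes depended on how much RNA entered. For MI-NS over Sham-NS, 112 genes were at least 2-fold higher with at least 3 marker UMIs, 116 with 2 different markers, 93 without Flt4 in the rule, 112 with no Flt1 or Emcn UMI, 115 with no fibroblast or leukocyte UMI, 27 with at least 50 UMIs a gene and 3832 with no minimum. Lower genes numbered 94 without Flt4, 98 with no Flt1 or Emcn UMI, 39 with at least 50 UMIs and 2210 with no minimum. For MI-DAPA over MI-NS, higher genes numbered 72 with at least 3 marker UMIs, 75 without Flt4, 27 with at least 50 UMIs and 2163 with no minimum, and lower genes 66, 54, 15 and 2306, with 70 for 2 different markers and 77 for no fibroblast or leukocyte UMI. Fewer nuclei or genes entered under these settings, except with no minimum, where more genes did. Against capillary nuclei DESeq2 called 93 genes higher and 70 lower, edgeR without the library block 106 and 113, and a stricter nucleus filter 95 and 98. Leaving out 1 library gave 101 to 138 higher and 108 to 178 lower. Against endocardial nuclei DESeq2 called 8 higher, no low-count filter 13 higher and 12 lower, the stricter filter 9 and 23, and leaving out 1 library 8 to 21 and 16 to 35. The cause of the DESeq2 and block differences was not tested. Mecom turned from -1.26 to 0.075 for MI-NS over Sham-NS with 2 different markers. Signs were followed only for genes picked by the naming rule and for sums of some lists. Among those, no other value called at least 2-fold or past the test changed sign under an alternative that was run. Other called genes, with the genes flagged above among them, were not followed in this way. Against capillary nuclei, single genes' values under alternatives kept their side of the test in 1473 cases, lost the call in 107 and gained it in 12, and against endocardial nuclei in 879, 71 and 7. Settings on Flt1 or Emcn, on fibroblast or leukocyte UMIs and on each marker in turn for the share were chosen after seeing the data.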

Other observations

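Il7, which encodes a cytokine that lymphatic endothelium makes for T cells, had 6, 3 and 5 UMIs in lymphatic nuclei (sham heart, MI-NS, MI-DAPA) and 0 in the capillary nuclei of each library. It was too low to pass the filter, was not tested and was chosen after its values were seen.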
